A study of Mus musculus with 34 samples.

Results

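A small set of the transcripts that rose in denervated mouse gastrocnemius muscle lacked most of that rise under each of 2 interventions. The interventions were the histone deacetylase inhibitor NVS-HD1 in wild-type mice and the deletion of Hdac4. The set held 94 of the 23737 rows of the deposited expression table. A row was taken when its mean in control muscle was from 2 to under 1000 TPM (transcript abundance relative to transcript length and to the total of the library), when its mean of log2(TPM + 1) was at least 1 higher in denervated than in control muscle, and when at least 70% of that rise was absent under each intervention. Of the 901 rows that met the first 2 conditions, the members were 10.43%, and the other 807 are called the other rises here. The members were thus chosen by their group means in all 34 libraries, so the rise and its reversal are given as a description and are not tested as findings.

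Each row carries a gene symbol, but the symbols do not belong to the values. The rows labelled Acta1, Ttn and Tnnc2, which name major sarcomere genes of muscle, were at 0 TPM in all 34 libraries, and that labelled Ckm, which names the creatine kinase of muscle, averaged 7.91 TPM. Members are therefore named by their position in the table, counted from the first row of values, and no member was assigned to a gene, a pathway or a sequence. For the same reason neither the tissue nor the deletion of Hdac4 could be checked in the table. The pattern over libraries is what these data can show.

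Skeletal muscle cut off from its nerve atrophies and turns on a transcriptional programme that includes acetylcholine receptor subunits, myogenic regulators and ubiquitin ligases of protein breakdown. HDAC4 is a class IIa histone deacetylase that accumulates in denervated fibres and is known to repress inhibitors of this programme, so that loss or inhibition of class IIa enzymes blunts part of it. This is background, and the members are not known to be genes of that programme.

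The libraries were made from polyadenylated RNA of female mice, 6 months old at surgery, in which the sciatic nerve of 1 leg was removed. WT_VEH_CON comprised 8 contralateral control legs of wild-type mice given vehicle, and WT_VEH_DEN 7 denervated legs of such mice. WT_NVS-HD1_DEN comprised 10 denervated legs of wild-type mice given NVS-HD1, which inhibits class IIa histone deacetylases, 2 times a day at 10 mg/kg for 2 weeks from the day of surgery. iRKO_VEH_DEN comprised 9 denervated legs of vehicle-treated mice with an inducible whole-body knockout, in which a tamoxifen-activated Cre expressed from the ROSA26 locus removes the floxed exon 5 of Hdac4 in all tissues, not only in muscle. Tamoxifen was given at 40 mg/kg for 7 days to mice described as 4 months old, and surgery followed 6 weeks after it, which sets the age at surgery somewhat below the stated 6 months if taken literally; the labels do not say whether wild-type mice received it. Innervated legs of mice on NVS-HD1 or of iRKO mice were not analysed here, so a lower level that would also occur in innervated muscle of these mice cannot be told apart from a smaller response to denervation. In whole muscle, fewer cells of a type and less RNA per cell cannot be told apart either. No label ties a leg to a mouse, and p-values measure the spread between these libraries.

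Some libraries stood apart. Replicates 3, 7 and 8 of iRKO_VEH_DEN had 40.88% to 41.84% of their TPM in the 20 most abundant rows of the table, against 32.43% to 35.88% in the other 6 knockout libraries. The titles also carry a number from 20 to 29 whose meaning is not given. WT_VEH_DEN holds only numbers 28 and 29, iRKO_VEH_DEN only 25 to 27, and a single NVS-HD1 library, replicate 4, shares a number (28) with WT_VEH_DEN. The knockout and this number cannot be told apart in comparisons with WT_VEH_DEN.

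The members' summed level made the pattern plain. It was 6022 ± 246.2 TPM in WT_VEH_CON (SD, n = 8), 0.602% of a library, and 21750 ± 2495 TPM in WT_VEH_DEN (SD, n = 7), 2.175% of a library. Under NVS-HD1 it was 6899 ± 561.1 TPM (SD, n = 10) and in the knockout 6951 ± 1747 TPM (SD, n = 9). Denervated vehicle libraries lay between 17310 and 24440 TPM, above all libraries of the other groups, of which knockout replicate 4 was the highest at 10510 TPM. The most abundant member, row 14045, carried part of this sum. Without it the sums were 5219 ± 189.8, 15960 ± 1569, 5972 ± 415.8 and 6027 ± 1317 TPM in the same order of groups.

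Per row, the median rise was 1.25 on the log2(TPM + 1) scale, with quartiles of 1.15 and 1.55, and 68 of the 94 members rose by less than 1.5. A rise of at least 2 was seen in 11 members and of at least 3 in 3. The median share of the rise that was absent was 79.9% under NVS-HD1 (range 70.2% to 180.7%) and 85.5% in the knockout (range 70.9% to 147.7%). Over the other rises the medians were 41.1% and 51.7%, at a median rise of 1.32. The knockout medians include replicates 3, 7 and 8, the lowest libraries of that group. The level in control muscle was 20.5 TPM at the median of the members and 18.1 TPM at that of the other rises. These differences in level and in size of rise were not tested.

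Over all libraries, reversal under NVS-HD1 was the narrower condition. Of the 901 rises, 102 met the bound of 70% under NVS-HD1 and 178 met it in the knockout. The 94 members are 92.16% of the first list and 52.81% of the second, which left 8 rows that met it under NVS-HD1 alone and 84 in the knockout alone. Both shares are measured from the same WT_VEH_DEN libraries, which ties them together. Without iRKO_VEH_DEN replicates 3, 7 and 8, 54 rows met both bounds, while the list of 102 under NVS-HD1 does not use these libraries. More rows than 8 would then meet the bound under NVS-HD1 alone. The knockout list was not counted without these libraries, so which condition is narrower is not known in that setting.

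**Figure D1:**
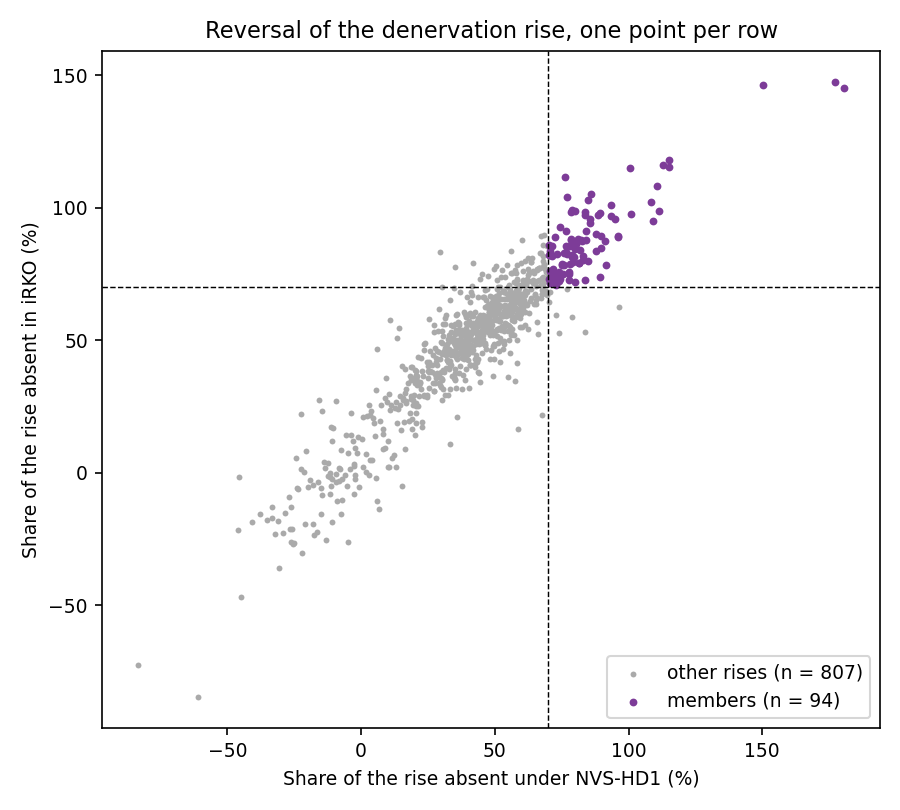
Each point is 1 of the 901 rows that rose at least 2-fold on the log2(TPM + 1) scale with denervation; the x axis gives the percentage of the rise absent under NVS-HD1 and the y axis that absent in iRKO_VEH_DEN, and dashed lines mark 70%. The 94 members fill the upper right corner by construction, and 3 of them, rows 719, 21476 and 21477, lie furthest out, with 145.3% to 147.7% of the rise absent in iRKO_VEH_DEN.

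Rows at the edges of the rule differed little across it. Just inside the reversal bound, row 16818 had 70.19% of its rise absent under NVS-HD1 and row 15508 had 70.23%. Just outside it, row 15003 had 69.73% and row 1705 had 69.7%, although row 1705 rose from 203.2 to 2124 TPM, by 3.37 on the log2 scale. At the edge of the rise, row 19080 was a member at 1.01 on the log2 scale and row 17158 was not at 0.996. At the lower edge of control level, row 18179 was a member at 2.325 TPM and row 7260 was not at 1.751 TPM.

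By the fit over all 13108 rows tested, all 94 members passed the test for a rise with denervation (limma, adjusted p under 0.05), where 41.9% of all rows did. All 94 also passed for a lower level under NVS-HD1, where 21.2% of all rows did, and all 94 for a lower level in the knockout, where 25.9% did. The rule used these contrasts, so the counts describe the selection. The values of the groups did not touch at all in many members. WT_VEH_DEN lay wholly above WT_VEH_CON in 86 members (24.3% of all rows), WT_NVS-HD1_DEN wholly below WT_VEH_DEN in 74 (7.05% of all rows) and iRKO_VEH_DEN wholly below WT_VEH_DEN in 70 (8.40% of all rows). In 61 members all 3 separations held, as in 5.33% of all rows.

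When the fit was adjusted for the number in the title, all 94 members kept their rise (37.3% of all rows passed), but 57 passed for NVS-HD1 (2.45% of all rows) and 28 for the knockout (0.687% of all rows). Only NVS-HD1 replicate 4 links the numbers of the denervated vehicle libraries to those of the interventions, so these adjusted values rest on that library. The values within a number come from libraries that helped to choose the members and restate that choice. In NVS-HD1 replicate 4, 91 of 94 members were below all 4 WT_VEH_DEN libraries of number 28, as were 35.13% of all rows tested. Within number 29, the 3 denervated libraries lay above all 5 control libraries in 92 members, against 35.17% of all rows, with a median rise of 1.35.

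The members with the largest rises covered a range of abundance. Row 13794 had the largest and was nearly silent in control muscle. Its control libraries read 1.908, 5.024, 1.8, 2.314, 2.326, 3.43, 1.405 and 2.818 TPM in the order of replicates, a mean of 2.628 ± 1.153 TPM (SD, n = 8). The 7 denervated libraries ran from 28.76 to 57.52 TPM with a median of 40.58 TPM. Under NVS-HD1 the lowest, median and highest values were 1.219, 2.642 and 8.029 TPM, and in the knockout 0.566, 2.624 and 10.37 TPM. All denervated vehicle libraries thus lay above every library of the other groups, and both interventions straddled the control range.

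Row 14045 was the most abundant member. It had 802.8 ± 80.5 TPM in control muscle (SD, n = 8) and 5788 ± 940.2 TPM after denervation (SD, n = 7), a rise of 2.84 on the log2 scale with an SE of 0.187. Its denervated libraries read 6777, 6516, 6573, 5739, 4198, 5729 and 4983 TPM in the order of replicates. NVS-HD1 libraries lay between 744.9 and 1298 TPM with a median of 868.7 TPM. Knockout libraries read 837.7, 1284, 517, 1873, 808.9, 874.8, 506.8, 566.7 and 1048 TPM. The knockout values spread to both sides of control, with replicates 3, 7 and 8 below every control library and replicate 4 above every NVS-HD1 library.

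Row 5183 rose about as steeply from a very even control level. Control libraries lay between 95.17 and 112.3 TPM, and denervated ones between 633.4 and 1406 TPM with a median of 997.6 TPM. Under NVS-HD1 the range was 50.11 to 158.1 TPM with a median of 79.83 TPM, and 8 of 10 libraries were at or below 98.15 TPM. In the knockout the range was 62.07 to 492.3 TPM with a median of 84.32 TPM, and replicate 4 alone gave the highest value. The other 8 knockout libraries reached at most 180 TPM, and the mean of all was 145.0 ± 136.9 TPM (SD, n = 9).

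Row 3629 had 301.3 ± 33.9 TPM in control muscle (SD, n = 8), reached 2417 ± 598.9 TPM after denervation (SD, n = 7) and was at 390.4 ± 75.32 TPM under NVS-HD1 (SD, n = 10) and 429.3 ± 93.96 TPM in the knockout (SD, n = 9). Row 205 went from 13.87 ± 4.195 to 142.0 ± 41.54 TPM and kept more of its rise, at 24.75 ± 7.536 TPM under NVS-HD1 and 26.76 ± 15.3 TPM in the knockout. In row 15229, which went from 13.46 ± 4.573 to 89.51 ± 38.64 TPM, NVS-HD1 libraries averaged 22.63 ± 9.112 TPM and knockout libraries 16.74 ± 8.842 TPM. In rows 3629, 205 and 15229 the denervated vehicle libraries lay above all libraries of the other groups.

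**Figure D2:**
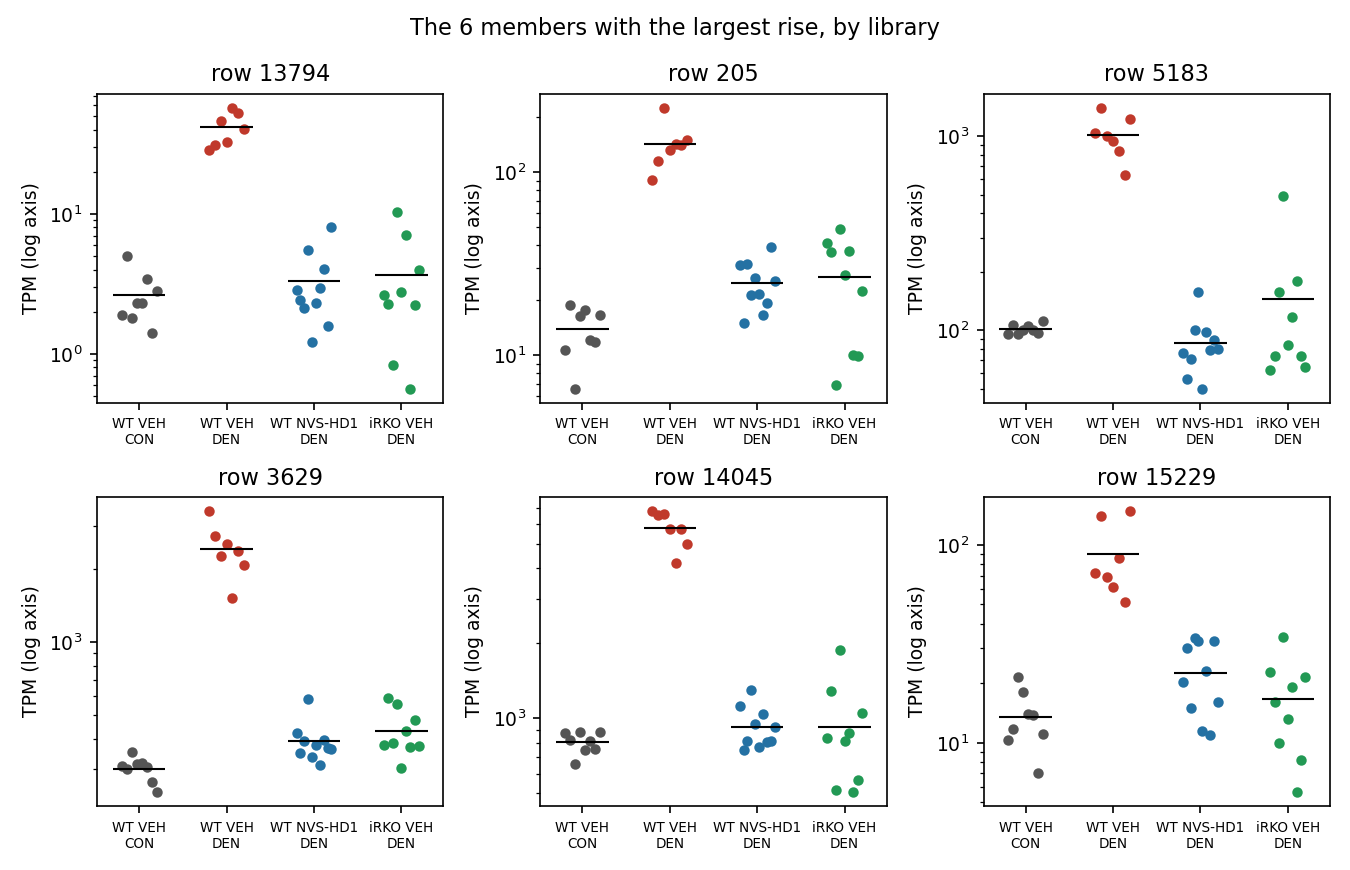
TPM on a log axis for the 6 members with the largest rise, 1 point per library and a line at the mean, in the 4 groups (8, 7, 10 and 9 libraries). In each panel the denervated vehicle libraries stand above all libraries of the other groups, and the knockout libraries of row 14045 run from 506.8 to 1873 TPM.

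The next members are the most abundant after row 14045, and they rose by 1.58 (row 2407), 1.32 (row 3150) and 1.01 (row 20146) on the log2 scale. Row 2407 went from 708.7 ± 52.95 TPM in control muscle (SD, n = 8) to 2126 ± 258.9 TPM after denervation (SD, n = 7), with 945.7 ± 101.0 TPM under NVS-HD1 (SD, n = 10) and 939.1 ± 196.7 TPM in the knockout (SD, n = 9). Row 3150 went from 504.4 ± 40.99 to 1261 ± 103.2 TPM, with 555.3 ± 59.65 and 568.3 ± 138.6 TPM under the interventions. Row 20146 went from 404.0 ± 63.56 to 818.3 ± 159.0 TPM, with 439.1 ± 65.95 and 451.5 ± 151.1 TPM. Over the 12 members at 100 TPM or more in control muscle, the median reversal was 87.85% under NVS-HD1 and 90.69% in the knockout. It was 78.11% and 85.01% over the 59 members from 10 to under 100 TPM, and 79.97% and 83.34% over the 23 below 10 TPM. These medians were not tested against each other, and the share of the rise absent under NVS-HD1 did not follow the size of the rise across the 94 members (Pearson r = 0.017, a description over rows of the same libraries).

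The steadiest members showed the pattern with little spread. In row 3547 control libraries lay between 19.12 and 26.76 TPM, denervated ones between 48.82 and 60.77 TPM, NVS-HD1 libraries between 25.53 and 32.63 TPM and knockout libraries between 24.19 and 34.12 TPM. Row 9326 had 148.0 to 179.5, 310.4 to 386.9, 155.2 to 202.9 and 132.9 to 197.3 TPM in the same order. In both rows the denervated vehicle group was separate and the other 3 groups overlapped.

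Part of the members were above the control level. By the same fit, 40 members (42.55%) were above control under NVS-HD1, where 41.9% of all rows were higher, and 27 (28.72%) were above it in the knockout, where 34.3% of all rows were higher. The rule caps this difference at 30% of the rise and uses the same means, so it is a description. These counts depended on the scaling of the libraries. In the TPM as they stand, the median of all rows tested was itself 0.18 above control under NVS-HD1 and 0.12 above it in the knockout. After median-of-ratios scaling those medians were 0.0024 and 0.0000, and 4 members were above control under NVS-HD1 (24.8% of all rows) and 5 in the knockout (22.6% of all rows). The knockout count was 17 without knockout replicate 4 (32.7% of all rows), 60 without replicates 3, 7 and 8 (41.6% of all rows) and 10 with the number of the title in the fit (9.82% of all rows). NVS-HD1 libraries lay wholly above control libraries in 3 members, rows 5912, 15977 and 16666 (15.2% of all rows), and knockout libraries did so in 0 (8.15% of all rows). In row 16666 the ranges were 29.71 to 35.9 TPM in control muscle and 37.69 to 54.81 TPM under NVS-HD1.

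A few members fell below the control level. The mean on the log2 scale was under that of control in 12 members under NVS-HD1 and in 14 in the knockout, and in 9 under both. Under NVS-HD1, 3 members passed the test for a level below control, where 11.0% of all rows did, and in the knockout 0 did, where 11.1% of all rows did. The 3 rows were 719, 21476 and 21477, and NVS-HD1 libraries overlapped control libraries in each of them. Over the 94 members, 0 lay wholly below control under NVS-HD1 (2.70% of all rows) and 0 in the knockout (2.27% of all rows). After median-of-ratios scaling 8 members were below control under NVS-HD1 (22.8% of all rows) and 6 in the knockout (19.6% of all rows). With the title number in the fit 0 members were below it under NVS-HD1, where 8.70% of all rows were.

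Row 719 was among the most variable members. Its control libraries read 56.78, 412.4, 497.4, 488.8, 495.6, 317.0, 183.2 and 117.6 TPM in the order of replicates. Denervated vehicle libraries ran from 478.0 to 1319 TPM with a median of 957.7 TPM. NVS-HD1 libraries ran from 61.0 to 385.4 TPM with a median of 148.4 TPM, and knockout libraries from 55.51 to 260.0 TPM with a median of 148.4 TPM. Both interventions had means close to 49% of the control mean (49.25% and 48.73%), but control replicates 1, 7 and 8 lay inside the knockout range.

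Rows 21476 and 21477 stand next to each other in the table. Row 21476 had 13.17 ± 4.919 TPM in control muscle (SD, n = 8), 32.08 ± 13.21 TPM after denervation (SD, n = 7), 6.514 ± 2.635 TPM under NVS-HD1 (SD, n = 10) and 8.998 ± 4.625 TPM in the knockout (SD, n = 9). Row 21477 had 8.10 ± 1.81, 19.23 ± 7.964, 4.024 ± 1.352 and 5.865 ± 2.827 TPM in the same order. Their deviations from the group means correlated at 0.93 over the 34 libraries. Denervated vehicle libraries overlapped control libraries in both rows, with replicate 4 the lowest at 16.54 and 10.12 TPM. Because the order of the values in the table is not known, their neighbourhood says nothing of their place in the genome.

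Row 12359 varied most within groups. Control libraries ran from 0.46 to 15.65 TPM and denervated vehicle libraries from 12.01 to 40.65 TPM. Under NVS-HD1, 9 libraries lay between 1.658 and 8.742 TPM and replicate 7 alone was at 45.01 TPM, above every denervated vehicle library. Knockout libraries lay between 1.774 and 8.887 TPM.

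**Figure D3:**
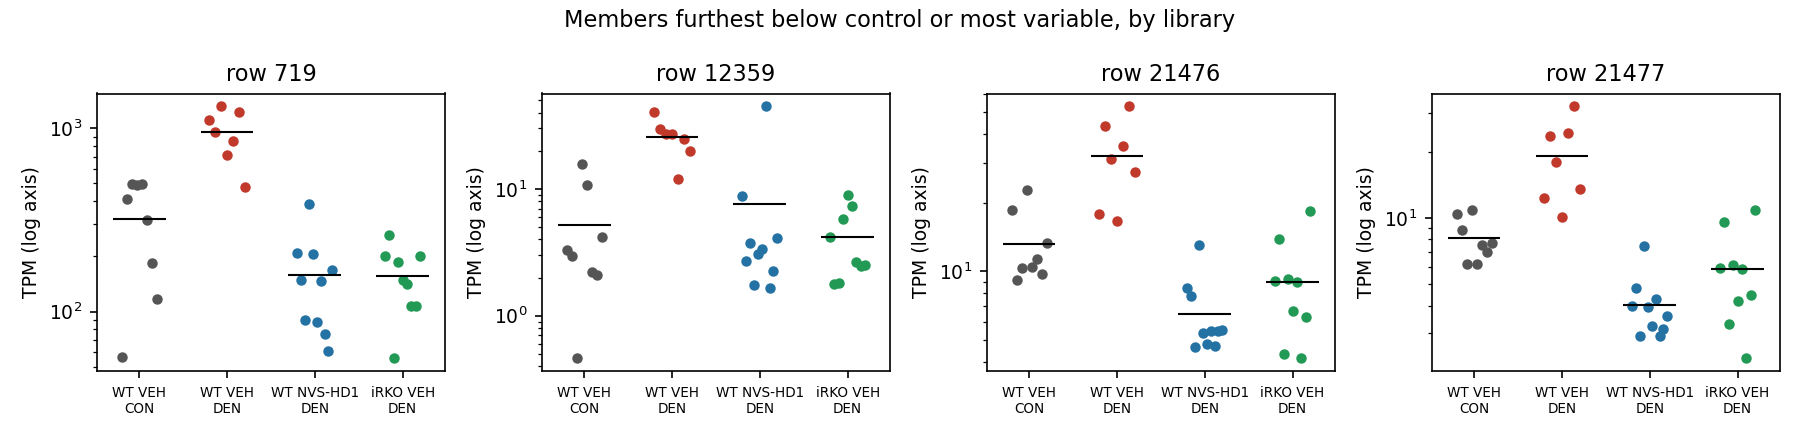
TPM on a log axis in every library for rows 719, 12359, 21476 and 21477, with a line at the mean of each group (8, 7, 10 and 9 libraries). NVS-HD1 and knockout libraries sit mostly under the control mean in rows 719, 21476 and 21477, and 1 NVS-HD1 library of row 12359 stands at 45.01 TPM.

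NVS-HD1 and the knockout were then compared with each other in denervated muscle. The rule sets no order between them, although it chose the members by the means of both groups and caps each level at 30% of the rise above control. Of the 94 members, 0 were higher and 0 lower under NVS-HD1 (limma, smallest adjusted p = 0.3483), where 0.0610% and 0.0153% of all rows were. At an unadjusted p under 0.05 there were 4 members (4.255%), all higher under NVS-HD1, against 8.392% of all rows. They were rows 2836, 5202, 7634 and 12959. The members' median difference was 0.045 on the log2 scale and that of all rows 0.060, and the difference was above 0 in 64 members.

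The missing calls do not show that the interventions gave equal levels. The 95% interval of the difference had a median width of 0.25 to each side, and lay within 1 log2 unit of 0 in 92 members. For each row the fit takes 1 spread for all groups. The members' median SD was 0.345 in the knockout and 0.224 under NVS-HD1, so these intervals may be too narrow. The widest bounds were -0.978, in row 5183, and 1.03, in row 12359. Within title number 27, with 7 NVS-HD1 and 2 knockout libraries, the median difference over the members was 0.16, and within number 26, with 2 libraries of each group, it was -0.21. The sign of the median thus turned between numbers, and knockout replicate 4, the highest of its group, is 1 of the 2 knockout libraries of number 26, while replicate 3 is 1 of the 2 of number 27.

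The largest differences pointed both ways and did not pass. Row 15229 was higher under NVS-HD1 by 0.47 (interval -0.071 to 1.017; limma, adjusted p = 0.656). Row 7634 was higher by 0.43 (interval 0.124 to 0.728; limma, adjusted p = 0.376). In row 7634 the NVS-HD1 libraries of title numbers 26 and 28 read 32.1 to 43.15 TPM, those of number 27 read 18.08 to 26.18 TPM, and the knockout libraries ran from 12.2 to 26.26 TPM. Row 5183 was lower by 0.46 (interval -0.978 to 0.055; limma, adjusted p = 0.643), and row 21477 by 0.38 (interval -0.793 to 0.028; limma, adjusted p = 0.637).

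**Figure D4:**
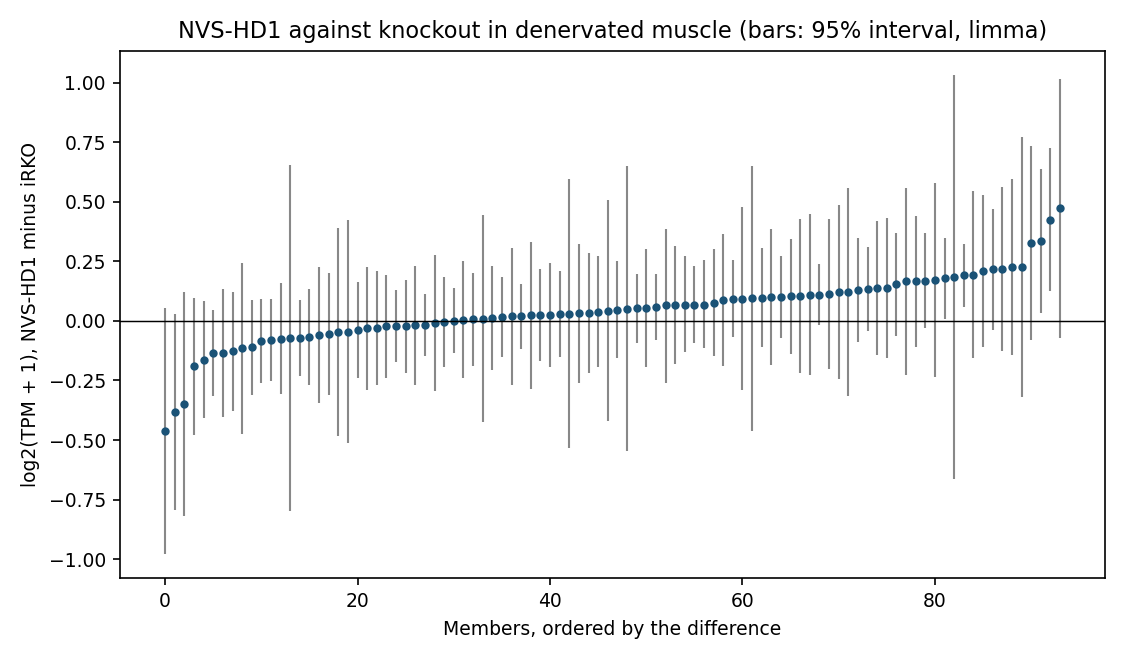
Difference in log2(TPM + 1) between WT_NVS-HD1_DEN (n = 10) and iRKO_VEH_DEN (n = 9) for the 94 members in order of size, with 95% intervals from limma as bars. The intervals take 1 spread for all groups. Differences run from -0.46 to 0.47, and 0 members pass at an adjusted p of 0.05.

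Within groups, the knockout libraries differed most. For every member each library was given a position, 0% at the mean of control and 100% at that of WT_VEH_DEN. The median position over the members ran from 8.60% to 26.16% in the 10 NVS-HD1 libraries. In the knockout it was -11.28%, -14.81% and -11.64% in replicates 3, 7 and 8, 46.75% in replicate 4 and 17.78% to 26.52% in the other 5 libraries. The group means were 17.91% ± 6.192 (SD, n = 10) and 13.64% ± 21.29 (SD, n = 9). Replicates 3, 7 and 8 are also those in which the 20 most abundant rows took the largest share of TPM, whose part in this was not tested. After median-of-ratios scaling their positions were -12.11%, -15.69% and -5.745%, and that of replicate 4 was 35.0%, still the 3 lowest and the highest of the group.

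**Figure D5:**
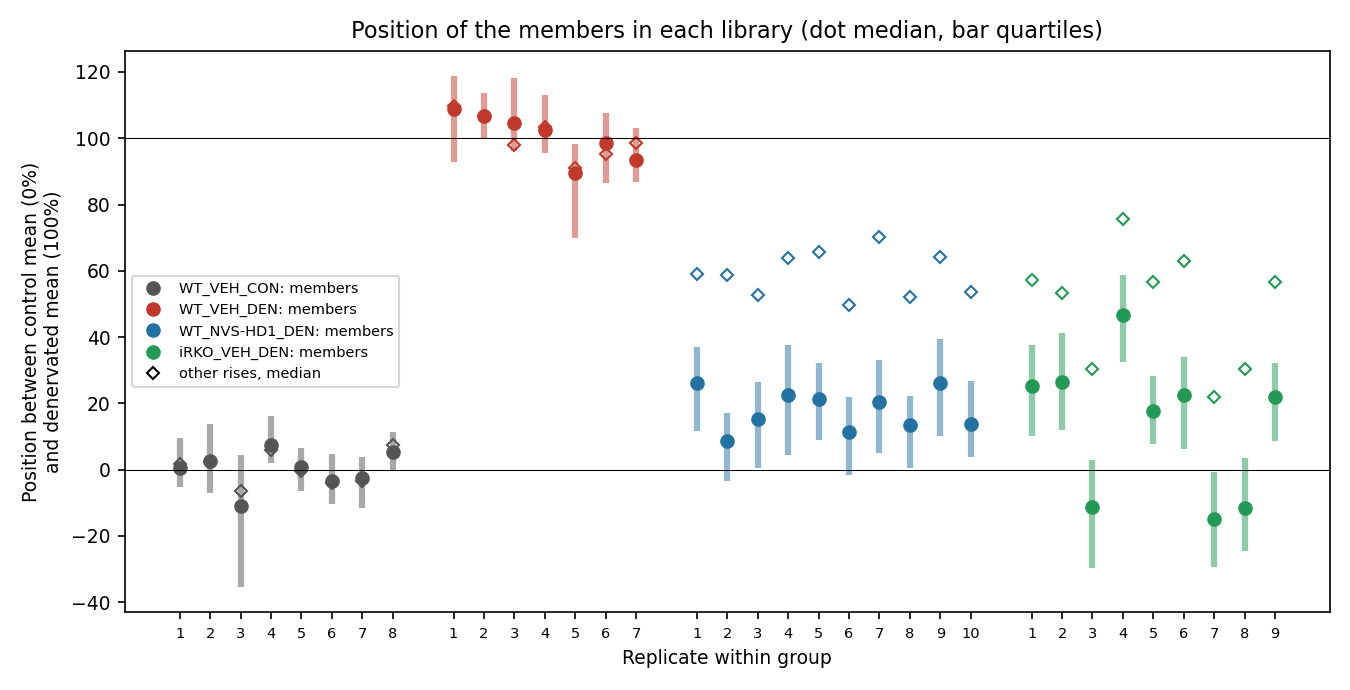
Median (dot) and quartiles (bar) of the position of the 94 members in each library, where 0% is the control mean and 100% the WT_VEH_DEN mean; open diamonds give the median of the 807 other rises. Knockout replicates 3, 7 and 8 lie under 0% for the members and between 21.78% and 30.49% for the other rises, whereas NVS-HD1 libraries lie between 8.60% and 26.16% for the members.

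The same libraries stood apart for the other rises, at 21.78% to 30.49% in knockout replicates 3, 7 and 8 and 75.52% in replicate 4. The lowest knockout value was in replicate 3, 7 or 8 in 87 of 94 members (92.55%) and in 87.23% of the other rises. The highest was in replicate 4 in 60 members, which was not counted for the other rises. The spread of log2(TPM + 1) was largest in the knockout group in 65 members (69.15%), as in 65.55% of the other rises and 37.75% of all rows tested. At the median of the members the SD was 0.345 in the knockout, 0.224 under NVS-HD1, 0.251 in denervated and 0.209 in control muscle.

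Membership leaned on these libraries. Without knockout replicates 3, 7 and 8, 54 rows met the rule, all of them among the 94, and 60 of the 94 members were above control in the knockout in place of 27, where 41.6% of all rows were. Without them, all 94 were still lower in the knockout than in denervated vehicle muscle (limma, adjusted p under 0.05), as were 19.1% of all rows. The rule used this contrast and the remaining knockout libraries, so the count restates the selection. The rows that left include rows 205, 2407 and 20146, and those that stayed include rows 13794, 14045, 5183, 3629 and 719.

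Members also varied together within groups. The mean correlation between pairs of members, on deviations from the group means, was 0.36 over 34 libraries, against 0.34 for the other rises and 0.14 for all rows tested. Within the knockout it was 0.61, against 0.51 for the other rises and 0.19 for all rows. Outside the knockout, over 25 libraries, it was 0.16 for the members, 0.20 for the other rises and 0.12 for all rows. By group, it was 0.16 in the members and 0.21 in the other rises within denervated vehicle libraries, and 0.13 and 0.21 within NVS-HD1 libraries. Within control libraries the members were at 0.15, the other rises at 0.13 and all rows at 0.18. The shared variation of the members was thus largest within the knockout and was lower than that of the other rises within both wild-type denervated groups, differences that were not tested. Row 14045 followed the mean of the other members most closely (r = 0.92), and row 13780 was the only one of the 94 with a negative value (r = -0.13), both named after their values were seen. Row 13780 had 36.69 ± 3.292 TPM in control muscle (SD, n = 8), 79.85 ± 9.273 TPM after denervation (SD, n = 7), 33.78 ± 4.708 TPM under NVS-HD1 (SD, n = 10) and 37.38 ± 6.077 TPM in the knockout (SD, n = 9). These correlations are over libraries that share scaling to a fixed total, and are a description.

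Control replicate 3 was the low library of its group. It had the lowest control value in 43 members (45.74%), against 35.81% of the other rises. The 20 most abundant rows held 44.07% of its TPM, the largest share of any control library. Its median position was -11.04% in the TPM as they stand and 10.15% after median-of-ratios scaling, so its place at the low end depended on the scaling. In denervated vehicle muscle, replicate 5 was lowest in 35 members (37.23%), as in 37.3% of the other rises. It had 33.73% of its TPM in the 20 most abundant rows, against 25.98% to 29.41% in the other 6 libraries.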

How the data were processed

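The authors deposited 1 table of TPM for 34 libraries, scaled to 1 fixed total. The submitters' processing notes name STAR 2.4.5a and mm10. How reads were counted and with which annotation and filters is not given in the sources used here. The depth of each library is unknown, since TPM do not keep it, and no counting interval is given. Libraries were grouped by the titles and numbered in accession order; 0 value columns were left unmapped.

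Values were analysed as log2(TPM + 1), which understates the change of rows of low TPM. The test took the 13108 rows that reached 1 TPM in 7 or more libraries, all 94 members among them. The 4 groups entered 1 limma fit (limma 3.58.1, R 4.3.3) with an empirical Bayes trend, two-sided, with Benjamini-Hochberg adjustment over all rows at 0.05. In the text, rose, lower, above and below for counts of members refer to this threshold. The fit was also run on simulated data with independent rows and the same spread in every group. These data differ in both, so that run does not bear on the calls given here. Other values came from Python 3.11.15 with numpy 2.4.6.

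The members, the rows described and the alternatives were chosen with earlier results of these data known. Named rows were the 6 largest rises, the 4 highest control levels, the 2 largest and 2 smallest differences between NVS-HD1 and knockout (0 were called), the 2 nearest the reversal bound on each side, the 2 most and 2 least variable members and the 2 furthest below control under each intervention. Further rows are named where a count was 5 or fewer or where the text says so. Alternatives were 3 scalings, pseudocounts of 0.1 and 5, other reversal bounds, group medians, libraries left out and the title number as a term.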

Additional observations from a re-analysis of the deposited data

Results flagged for a closer look

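In 6 of 80 groups of values examined (18 rows, the members' median position and their summed TPM, in 4 groups), the highest library lay further from the rest than the 95% value of Dixon's test allows. Rows were examined as log2(TPM + 1) and are given below in TPM. Chance gives about 1 in 20 for rows not picked by their values. All 18 rows were picked by their values in these libraries, rows 719 and 12359 for their large spread within groups. The members behind the position and the sum were chosen by their group means. The 6 of 80 can therefore not be set against 1 in 20. Row 12359 was at 45.01 TPM in NVS-HD1 replicate 7, where the other 9 libraries ran from 1.658 to 8.742 TPM. NVS-HD1 replicate 4 was at 585.2 TPM in row 3629, against 312.5 to 424.5 TPM, and at 7.434 TPM in row 21477, against 2.895 to 4.819 TPM. NVS-HD1 replicate 5 was at 699.0 TPM in row 3150, against 505.5 to 596.6 TPM. Row 15508 was at 5.168 TPM in control replicate 4, against 3.744 to 4.304 TPM, and at 10.99 TPM in knockout replicate 4, against 3.892 to 6.333 TPM.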

How the results depend on the processing

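The number of rows that met the rule was 94 in the main analysis. Median-of-ratios scaling gave 105 rows, quantile normalization 75 and a rescaling that leaves out the 20 most abundant rows 58, of which 64, 49 and 54 were among the 94, and 46 met it under all 3. It was 183 and 39 at reversal bounds of 0.6 and 0.8, 97 with group medians, 102 and 81 with pseudocounts of 0.1 and 5, and 54 without knockout replicates 3, 7 and 8. A fit with the number of the title as a covariate gave 92, of which 40 were among the 94. Leaving out each library gave 85 to 119 rows, and 61 members met the rule in all 34 cases. Median-of-ratios scaling took the median denervation change of all rows from 0.17 to 0.0060.

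All 94 members kept their calls for denervation under every alternative, and for both interventions under all but the title number. With it, 57 kept the call for NVS-HD1 (2.45% of all rows passed) and 28 for the knockout (0.687% of all rows). The rule used these contrasts, so these counts restate the selection. Members above control under NVS-HD1 numbered 4, 7 and 25 under the 3 scalings in the order above and 19 with the title number, against 40, and 32 to 43 when single libraries were left out. In the knockout, members above control numbered 5, 11 and 26 under the same scalings, 10 with the title number and 60 without knockout replicates 3, 7 and 8, against 27. They numbered 17 (without replicate 4) to 34 when single libraries were left out. The shares of all rows above control in the knockout were 22.6%, 22.8% and 30.8% under the scalings and 9.82% with the title number. They were 41.6% without replicates 3, 7 and 8 and 32.7% without replicate 4, against 34.3%. Members below control under NVS-HD1 numbered 8, 9 and 6 under the scalings and 0 with the title number, against 3. Of all rows, 22.8%, 23.8%, 14.7% and 8.70% were below it in these settings, against 11.0%. In the knockout, members below control numbered 6, 5 and 3 under the scalings, against 0, where 19.6%, 20.7% and 13.3% of all rows were, against 11.1%. Leaving out single libraries gave 2 to 3 members below control under NVS-HD1 and 0 to 3 in the knockout. The share of all rows is not given for the ranges over single libraries left out, so nothing is read from them. The causes were not tested. Calls between NVS-HD1 and the knockout stayed at 0 under every alternative run. No paired analysis was possible because the titles carry no replicate numbers that tie legs or mice. Depth is unknown, so what it limits cannot be stated.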
